A study of Mus musculus with 3 samples.

Results

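Actb encodes beta-actin, the main subunit of the actin filaments of most cells, and Pabpc1 encodes the cytoplasmic protein that coats the poly(A) tails of messenger RNAs and aids their translation. Both are active in nearly every cell type and are commonly called housekeeping genes. Described here are the contacts that the promoters of these 2 genes made with other sequences of their own chromosomes in mouse erythroid cells. They were picked by name from the 7184 promoter names with contacts in the series. They account for 2573 (Actb) and 2067 (Pabpc1) of 47812899 listed contacts.

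Contacts were measured by nuclear-titrated (NuTi) Capture-C. Chromatin is cut inside nuclei with DpnII, an enzyme that cuts at the letters GATC, fragments lying close together in the nucleus are ligated, and biotinylated probes pull out the ligation products of chosen promoter fragments, called viewpoints. One unique ligation product between a viewpoint and another fragment of the same chromosome is 1 cis event. Contact frequency falls steeply with distance along the chromosome, so a contact is of interest mainly where it stands above that fall. Enhancers and promoters that lie in the same folded domain of a chromosome usually contact each other more often than sequences on either side of a domain border.

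The series holds 1 group of 3 libraries and no control group. The cells were ter119+ erythroid cells, purified with magnetic beads from spleens of F1 hybrid mice of C57BL/6 and CBA/J. The mice had received phenylhydrazine, which destroys red cells and fills the spleen with erythroid cells, in 3 doses 12 h apart, given in the labels as 40 mg per g body weight, and were killed on day 5. The labels put CD71+ ter119+ cells at over 80% of such spleens. They give no age, and do not say whether the libraries came from separate animals, so the spread between libraries may be technical. The p-values below come from counts summed over the libraries and set them against the spread of windows of all viewpoints around expectation, not against a spread between animals. Expression was not analysed here, so the cell type was not checked against marker genes, and erythroid super-enhancer positions were not used here. The value columns of the table carry no names, so its libraries appear below as a, b and c from left to right. Fragments within about 1 kb of a viewpoint are not listed.

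The Actb viewpoint was the 690 bp DpnII fragment at chr5:143668257-143668946 (mm9). Actb (ENSMUSG00000029580.7) lies on the minus strand at chr5:143664794-143668433. The fragment therefore held the end of intron 1 nearest exon 1, exon 1 and the sequence just upstream of the start. The Pabpc1 viewpoint was the 1630 bp fragment at chr15:36538121-36539750. Pabpc1 (ENSMUSG00000022283.8) also lies on the minus strand, at chr15:36525416-36538728. Its fragment began in the coding part of exon 1 and ended upstream of the gene. For both genes, lower coordinates are thus the gene-body side and higher coordinates the upstream side.

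The fragment ends are where ligation takes place, and capture probes were placed there. The study's 70-base probes for Actb, which equal the plus strand of mm9, are shown first. For Pabpc1, no probe sequence was used here, and the 70 bases at the upstream end of its fragment are shown from the mm9 plus strand. Capitals mark the DpnII site.
Actb left probe, intron 1, chr5:143668257-143668326: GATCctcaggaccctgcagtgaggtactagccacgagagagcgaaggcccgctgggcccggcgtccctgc
Actb right probe, upstream of the gene, chr5:143668877-143668946: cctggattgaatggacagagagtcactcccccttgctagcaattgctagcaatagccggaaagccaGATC
Pabpc1 right fragment end, upstream of the gene, chr15:36539681-36539750: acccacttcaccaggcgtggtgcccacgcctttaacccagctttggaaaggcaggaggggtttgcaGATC

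The profiles were sparse. Actb had 961 cis events in library a, 1576 in b and 1492 in c, and Pabpc1 had 901, 1468 and 1443. Library a was the shallowest for both. Their sums, 4029 and 3812 events, compare with a median of 6481.5 over all viewpoints, and 31.1% and 29.2% of viewpoints had fewer. Of the Actb fragments, 116 were seen in all 3 libraries and 2205 in only 1. For Pabpc1 these numbers were 153 and 1650. No fragment had more than 23 events for either promoter.

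Close to the viewpoints, the difference between libraries b and c was smaller than sampling noise. Over all viewpoints, the chi-square per degree of freedom between b and c was 0.816 from 2.5 to 10 kb and 0.952 from 10 to 100 kb, below that of a with b (0.903 and 0.999), where sampling alone gives 1. For this reason b and c were averaged and counted as 1 sample, and means ± SD below have n = 2. Differences between b and c do not enter these SDs. They can therefore be much smaller than the spread of the 3 libraries and are no measure of close replication. The 5 kb profiles of the members were alike between libraries. The squared Pearson correlation of window counts, which the distance decay shared by all libraries sets in large part, was 0.854 to 0.922 over 354 windows for Actb and 0.885 to 0.909 over 400 windows for Pabpc1.

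The first comparison asked how the contacts of each promoter were spread over distance. Both promoters made many contacts nearby, but Pabpc1 did so over a wider range. From 10 to 100 kb lay 34.9% of the Pabpc1 events in library a, 33.2% in b and 31.5% in c (33.6% ± 1.79 (SD, n = 2)). For Actb these shares were 18.5%, 17.7% and 18.2% (18.2% ± 0.393 (SD, n = 2)). Every Pabpc1 value was far above every Actb value, and the exact binomial 95% intervals of the summed counts, 31.4% to 34.4% and 16.9% to 19.3%, did not overlap. Such intervals cover counting error only. The Pabpc1 share was higher than that of 99.4% of the 6718 viewpoints with at least 1000 cis events, whose median was 15.9%, and the Actb share was higher than that of 65.7%.

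From 2.5 to 10 kb, the members were alike and both high. Actb had 13.0%, 10.5% and 8.38% of its events there in libraries a, b and c, and Pabpc1 12.4%, 10.3% and 9.84%. The share was highest in library a and lowest in library c for both promoters. Summed over the libraries, 10.3% and 10.6% exceeded 97.8% and 98.3% of all viewpoints, with a median of 5.90%. Within 2.5 kb, Actb held 2.95% of its events, more than 91.0% of viewpoints, and Pabpc1 1.08%, more than 35.7%. Distances run from fragment midpoints, so the 1630 bp Pabpc1 viewpoint leaves less countable sequence in this range than the 690 bp Actb viewpoint.

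Beyond 1 Mb the promoters parted. From 1 to 10 Mb, Actb had 23.7%, 22.7% and 25.1% of its events in libraries a, b and c, and Pabpc1 10.3%, 12.5% and 13.2%. All 3 Pabpc1 shares were below all 3 Actb shares, and only 5.66% of viewpoints had a lower summed share than the 12.3% of Pabpc1. Over 10 Mb away lay 22.3% ± 2.53 of the Actb events and 21.1% ± 1.53 of the Pabpc1 events, against a median of 34.1%. Actb has only 8.87 Mb of chromosome 5 on its upstream side, so distant fragments lie almost wholly on its gene-body side, while Pabpc1 has 36.54 Mb of chromosome 15 on the gene-body side and 66.96 Mb upstream.

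**Figure D1:**
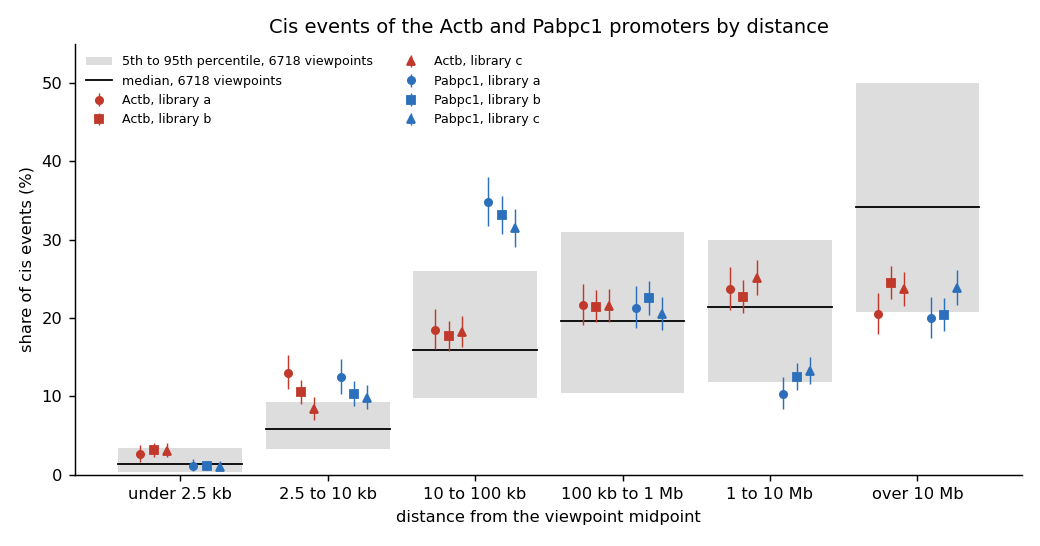
Share of cis events (%) in 6 ranges of distance from the viewpoint midpoint, for Actb (red) and Pabpc1 (blue) in libraries a (circles), b (squares) and c (triangles). Bars are exact binomial 95% intervals, grey bands the 5th to 95th percentile and black lines the median of 6718 viewpoints. Pabpc1 lies above the band from 10 to 100 kb (31.5% to 34.9%) and near its lower edge from 1 to 10 Mb.

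Together, 51.1% ± 3.00 (SD, n = 2) of the Actb events and 66.3% ± 3.28 (SD, n = 2) of the Pabpc1 events fell between 2.5 kb and 1 Mb. The median viewpoint had 42.3%, and 77.2% and 98.2% of viewpoints had a lower share than Actb and Pabpc1. The slope of the decay, fitted from 10 kb to 1 Mb to log10 events per fragment on log10 distance, was -0.89, -0.86 and -0.87 for Actb in libraries a, b and c. For Pabpc1 it was -1.24, -1.16 and -1.15. The fall was steeper for Pabpc1 in every library. Its mean was -1.20 ± 0.06 (SD, n = 2) and the Actb mean -0.88 ± 0.01 (SD, n = 2). Fitted to the summed counts, the slope was -1.17 for Pabpc1 and -0.87 for Actb. Slopes of all viewpoints, fitted in that way, had a 5th percentile of -1.20 and a median of -0.90. Pabpc1 thus lay near their steep end, with 6.12% of viewpoints steeper, and Actb close to their median.

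The next comparison asked to which side each promoter turned. From 2.5 kb to 1 Mb, 28.8%, 31.3% and 34.6% of the Actb events in libraries a, b and c were on its gene-body side (30.9% ± 2.97 (SD, n = 2)). Pabpc1 was near an even split with 47.6%, 51.1% and 52.3% (49.6% ± 2.91 (SD, n = 2)). Actb thus leaned upstream in each library, and its summed share, 31.8%, was below that of all but 3.24% of 5025 viewpoints with an annotated strand. Fragments that could be counted were themselves unequal around Actb, with 43.1% of them on the gene-body side, and weighting each side per fragment moved the share to 37.1%.

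The lean was strongest at intermediate distance. From 50 to 250 kb only 20.3%, 15.1% and 18.9% of the Actb events in libraries a, b and c were on the gene-body side, where 39.3% of the fragments lay. From 250 kb to 1 Mb the Actb share was 40.3% ± 3.67 (SD, n = 2). Pabpc1 changed side with distance. Between 2.5 and 10 kb its gene-body side held 64.7% ± 1.82 of the events. This share was 33.7% ± 2.35 between 50 and 250 kb, and 78.7% ± 2.37 between 250 kb and 1 Mb. In the last range 77.0%, 81.1% and 79.6% of its events in libraries a, b and c were on that side, a larger share than in 93.1% of viewpoints.

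Setting the counts against expectation shows where these events lay. The expected count of a window was the mean count per fragment at that distance over all viewpoints, scaled to the viewpoint's total from 2.5 kb to 1 Mb, and ratios below are observed over expected events. Upstream of Actb the ratio was 1.50 ± 0.193 up to 12.5 kb. Between 12.5 and 52.5 kb it was 1.37 ± 0.0127, with 1.36, 1.45 and 1.30 in libraries a, b and c. Between 52.5 and 102.5 kb it was lower, at 0.482 ± 0.0599. Between 102.5 and 202.5 kb it was 1.67 ± 0.175, above 1.5 in each of the 3 libraries. In 25 kb windows, chosen after the data were seen, the ratio was 1.59 from 2.5 to 27.5 kb and under 1 in each window from 27.5 to 127.5 kb (0.350 to 0.823), then 1.97 to 2.73 up to 202.5 kb. The part under expectation covered Fscn1, which encodes the actin-bundling protein fascin, with 22 events over its gene body against 44.6 expected.

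On the gene-body side of Actb, the summed ratio was under 1 in each of the 6 ranges out to 502.5 kb, although single windows reached or passed 1, such as 27 events against 26.1 at 7.5 to 12.5 kb. It was 0.565 ± 0.185 between 12.5 and 52.5 kb and 0.240 ± 0.0271 between 52.5 and 102.5 kb. Tnrc18, a gene body of 67.3 kb on that side, had 49 events against 120.6 expected, with ratios of 0.464, 0.360 and 0.417 in libraries a, b and c. Further out, 46 of the 400 windows around Actb, on both sides together, held no fragment that could be counted. From 302.5 to 502.5 kb, 20 windows could be tested on the gene-body side and 40 upstream. From 502.5 kb to 1 Mb these numbers were 100 and 92. The gene-body side was thus measured only in part. From 502.5 kb to 1 Mb, ratios were above 1 on both sides, at 1.41 ± 0.133 and 1.66 ± 0.144 (SD, n = 2).

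Rnf216 (chr5:143752572-143874673), a RING-type ubiquitin ligase gene whose promoter lies 206 kb upstream of Actb, was the gene body with the most events on that side. It held 64, 109 and 106 events in libraries a, b and c against 43.3, 67.9 and 62.2 expected. All 3 libraries were above expectation, with a mean ratio of 1.57 ± 0.126 (SD, n = 2). Fbxl18, an F-box gene whose promoter is 11.2 kb away on the other side, held 170 events against 256.8, below expectation in each library.

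**Figure D2:**
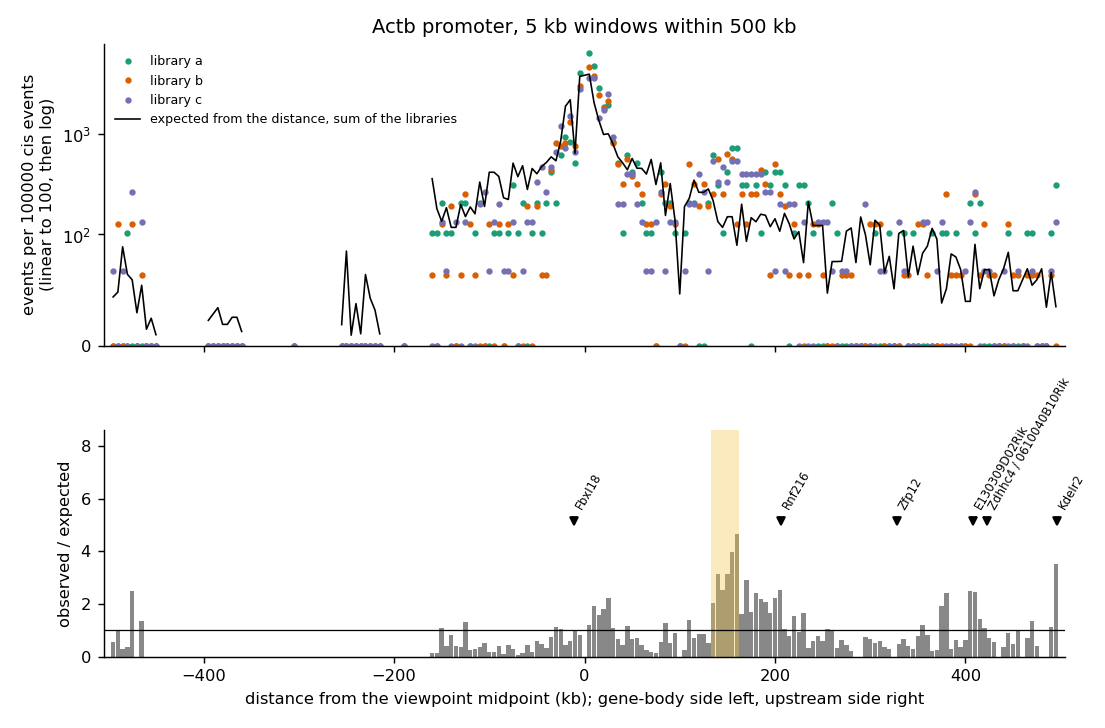
Contacts of the Actb promoter in 5 kb windows within 500 kb, by distance (kb) from its midpoint, gene-body side left. Top, events per 100000 cis events in libraries a, b and c (points) and the expected level (line, broken where no fragment could be counted), on an axis linear to 100 and logarithmic above; bottom, observed over expected events with captured promoters (triangles) and the 132.5 to 162.5 kb stretch (yellow), where ratios ran from 2.04 to 4.67.

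The range with the highest Pabpc1 ratio lay upstream and within about 100 kb. From 52.5 to 102.5 kb upstream the ratio was 2.15, 2.12 and 2.12 in libraries a, b and c (2.14 ± 0.0230 (SD, n = 2)), and between 12.5 and 52.5 kb it was 1.46 ± 0.0546. The libraries hardly differed there. Beyond 202.5 kb upstream, past Ywhaz, ratios were 0.451 ± 0.0553, then 0.405 ± 0.0318 up to 502.5 kb and 0.173 ± 0.00439 from there to 1 Mb. In that last range 25 events were seen where 146.6 were expected. Its ratios were 0.176, 0.154 and 0.185 in libraries a, b and c.

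The gene-body side of Pabpc1 was raised nearby and again further away. The ratio was 1.10 ± 0.0342 up to 12.5 kb and 1.26 ± 0.0141 between 12.5 and 52.5 kb, with all 3 libraries above 1 in both. It was 0.578 ± 0.0898 between 52.5 and 102.5 kb and 1.25 ± 0.218 between 202.5 and 302.5 kb. Further out it was 1.49 ± 0.261 between 302.5 and 502.5 kb and 0.394 ± 0.0511 beyond. The part between 302.5 and 502.5 kb held Spag1, with 58 events against 30.0, and Rnf19a, with 49 against 28.8. Library c was highest and library a lowest for both genes (Rnf19a ratios 1.02, 1.40 and 2.48 in libraries a, b and c). Beyond them, Rgs22, which encodes a regulator of G protein signalling, had 12 events against 54.7 and was under expectation in each library.

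**Figure D3:**
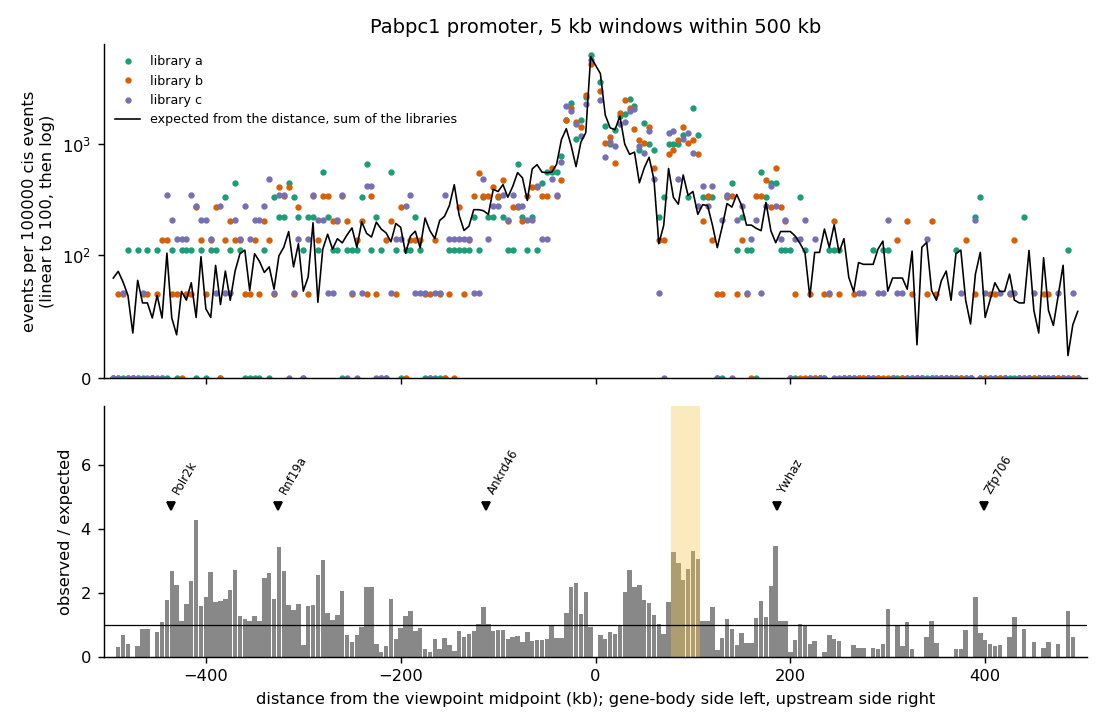
Contacts of the Pabpc1 promoter in 5 kb windows by distance (kb) from its midpoint, gene-body side left, drawn in the same way as the Actb profile. The yellow band marks the stretch from 77.5 to 107.5 kb upstream, with ratios from 2.39 to 3.30; upstream events become sparse beyond Ywhaz.

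Single windows were then tested for more events than expected, with an upper-tail negative binomial test on the summed counts and Benjamini-Hochberg adjustment over all windows of all viewpoints. A window was called when its adjusted p was under 0.05 and it was above expectation in each library. Over all viewpoints 2834 of 2655607 windows were called (0.107%). None of the 354 Actb windows and none of the 400 Pabpc1 windows passed. By a different method and threshold, the study reported contacts of both promoters with erythroid super-enhancers, which were not looked at here. At an unadjusted p under 0.05 there were 37 Actb windows (10.5%) and 18 Pabpc1 windows (4.50%), against 5.77% over all viewpoints. The Actb number depended on the processing. It was 21 with expectation scaled to the promoter's own total in each of 8 distance classes. It was also 21 with no high count set aside in estimating the spread. The other negative binomial alternatives in 5 kb windows gave 28 to 43. Shares over all viewpoints under these alternatives are not given here. A Poisson test, which allows no spread beyond counting, called 13 (3.67%) and 19 (4.75%), against 6.08% of windows over all viewpoints. Among the 1194 viewpoints of like depth, with 3000 to 5000 cis events, 20.4% had a called window by the negative binomial test, against 21.8% of all and 107 of the 510 with at least 30000.

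The counts show what the test could have detected. In the Actb window from 152.5 to 157.5 kb upstream, 6.06 events were expected and 24 seen, and 30 events (a ratio of 4.95) were needed for a call. At 27.5 to 32.5 kb, 109 events were needed (a ratio of 3.39), and at 502.5 to 507.5 kb 16 events (a ratio of 8.23). The numbers for Pabpc1 were near these. Smaller ratios could not have been called in the Actb windows given here.

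Among windows with at least 10 expected events, the 5 with the highest ratios were all upstream for both promoters and contained no annotated gene. For Actb they covered the sequence from 2.5 to 27.5 kb without a break. The highest, at 22.5 to 27.5 kb (chr5:143691103-143696102), had 19, 34 and 38 events in libraries a, b and c. With 40.8 expected, its ratio was 2.23 (p = 0.00453, negative binomial adjusted p = 0.420). It was above expectation in each library, with a mean ratio of 2.10 ± 0.405. The lowest of the 5, at 2.5 to 7.5 kb, had a ratio of 1.19 and was below expectation in library c.

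For Pabpc1, the windows at 97.5 to 102.5 kb and 77.5 to 82.5 kb upstream led, with 47 events against 14.3 and 41 against 12.6. The first (chr15:36636437-36641436) had 19, 16 and 12 events in libraries a, b and c, and the second (chr15:36616437-36621436) 9, 13 and 19. Their ratios were 3.30 and 3.26, and their negative binomial adjusted p were 0.206 and 0.163. Per 100000 cis events, library a was the highest in the first (2109, 1090 and 832 in libraries a, b and c) and library c in the second (999, 886 and 1317). The other 3 windows, at 82.5 to 87.5, 92.5 to 97.5 and 32.5 to 37.5 kb, had ratios of 2.92, 2.74 and 2.69, and library a was below expectation in the window at 92.5 to 97.5 kb. With expectation scaled to the promoter's own total in each of 8 distance classes, each of these ratios was lower. They were 2.48 at 97.5 to 102.5 kb and 2.45 at 77.5 to 82.5 kb. At 82.5 to 87.5, 92.5 to 97.5 and 32.5 to 37.5 kb they were 2.20, 2.06 and 1.74.

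The window with the lowest p of each promoter, and the run of neighbouring windows with ratios of at least 2 around it, was then described further. This choice was made after the values were seen. For Actb the window was 157.5 to 162.5 kb upstream, with 7, 2 and 8 events in libraries a, b and c against 3.64 expected in all (ratio 4.67, negative binomial adjusted p = 0.146). Library b was the low one, and with library b left out the window passed the negative binomial test (adjusted p = 0.0432). The negative binomial adjusted p was 0.522 without library a and 0.571 without library c, and with expectation set per base rather than per fragment the ratio was 2.47 (negative binomial adjusted p = 0.881). The run spanned 6 windows from 132.5 to 162.5 kb (chr5:143801103-143831102), inside Rnf216, in introns except for an exon in the farthest window. It held 107 events against 34.7, with ratios of 3.23, 2.79 and 3.29 in libraries a, b and c.

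For Pabpc1 the run spanned 6 windows from 77.5 to 107.5 kb upstream (chr15:36616437-36646436), between annotated genes, and held 231 events against 79.9. Its ratios were 3.13, 2.97 and 2.64 in libraries a, b and c. Over the whole of each run the libraries were close together, although the run was chosen on their sum. Single windows differed more, with Actb ratios of 7.69, 1.41 and 6.14 in libraries a, b and c at 157.5 to 162.5 kb. For Pabpc1 at 102.5 to 107.5 kb they were 5.05, 3.45 and 1.25. In both runs the events were spread over many fragments. Of 70 fragments in the Pabpc1 run, 63 had events and the highest had 9. Of 54 in the Actb run, 45 had events and the highest had 6.

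The shortest-range view of these runs is a single fragment. Among fragments of at most 300 bases, the one with the most events of each run (of those tied, the first seen in the most libraries) is shown whole, on the plus strand, with no part marked. The Actb fragment, 137.3 kb from the viewpoint, had 2, 0 and 2 events in libraries a, b and c, and the Pabpc1 fragment, 97.6 kb away, had 1, 1 and 4.
Fragment in the Actb run, chr5:143805813-143805983: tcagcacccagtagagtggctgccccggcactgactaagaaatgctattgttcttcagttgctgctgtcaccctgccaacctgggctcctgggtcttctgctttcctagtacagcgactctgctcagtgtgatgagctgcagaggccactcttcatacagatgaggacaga
Fragment in the Pabpc1 run, chr15:36636362-36636651: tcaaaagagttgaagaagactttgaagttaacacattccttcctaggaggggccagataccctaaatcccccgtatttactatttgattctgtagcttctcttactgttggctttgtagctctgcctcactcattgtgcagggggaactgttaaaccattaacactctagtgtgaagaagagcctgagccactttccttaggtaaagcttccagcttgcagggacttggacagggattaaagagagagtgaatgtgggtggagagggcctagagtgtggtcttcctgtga

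The core motif of CTCF, a DNA-binding protein that shapes chromosome folding, was searched on both strands by its fixed letters. Each run held 1 match in its 6 windows, and 16.4% of the Actb windows and 9.25% of the Pabpc1 windows within 1 Mb held any. Neither viewpoint fragment held a match. The sequence of the viewpoints themselves was checked for copies. No fragment within 1 Mb shared a run of 30 bases with either, and the 3 fragments of chromosome 5 that shared one with Actb had 0 events.

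Other captured promoters gave a view of the same runs from elsewhere. Of those within 500 kb of Actb, Fbxl18, the nearest captured neighbour of Actb, had the highest ratio at the Actb run, with 308 events against 96.2 and ratios of 3.12, 3.07 and 3.40 in libraries a, b and c. From Fbxl18 a window inside the run was called (chr5:143824905-143829904), with 62 events against 11.2 and a negative binomial adjusted p of 0.0110. The ratio of Actb itself was 3.08. From Rnf216, whose gene the run lies in, the ratio was 1.28, and from Zfp12 it was 0.426.

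At the Pabpc1 run, the promoters on the gene-body side of Pabpc1 were also raised. Polr2k, which encodes a subunit shared by RNA polymerases, had 359 events against 95.4 from 528 kb away (ratio 3.76). Rnf19a (2.86) and Ankrd46 (2.65) stood beside Pabpc1 itself (2.89), and Zfp706, on the opposite side of the run, had 2.11. Ywhaz, the 14-3-3 protein gene next upstream of Pabpc1, had 161 events against 148.6 at nearly the same distance as Pabpc1, with ratios of 0.967, 1.14 and 1.08 in libraries a, b and c. Each run was chosen for high ratios of its own promoter, so the values of Actb and Pabpc1 there are a description and no comparison with the others. These views share the run's fragments and the libraries, and no window of the run was called from Pabpc1 or the other 5 promoters.

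**Figure D4:**
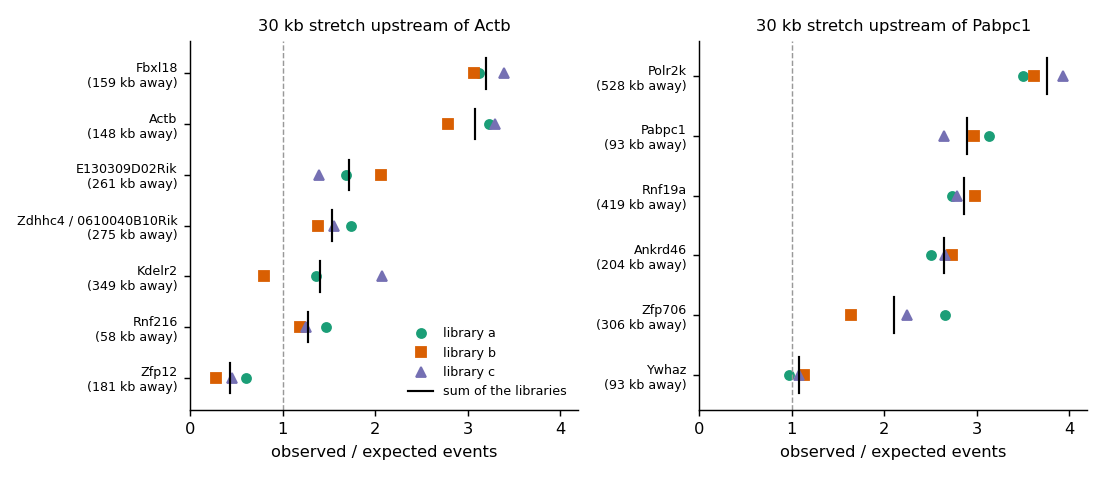
Observed over expected events in the 30 kb run upstream of Actb (left) and of Pabpc1 (right), seen from each captured promoter within 500 kb of the member, in libraries a, b and c and in their sum (black bar). At the Actb run, chosen for its Actb ratios, Fbxl18 stands at 3.20 and Actb at 3.08; at the Pabpc1 run, chosen for its Pabpc1 ratios, the sums of all promoters but Ywhaz (1.08) lie above 2.

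The last short-range comparison asked whether the members contacted other captured promoters. Targeted fragments themselves are not in the table, so events were counted on the fragments 1 and 2 places either side, and each pair was read from both promoters. Over all viewpoints 45 of 91080 directed pairs were called (0.0494%). None of the 14 pairs seen from Actb, the 14 seen towards it, the 6 seen from Pabpc1 or the 6 seen towards it was called by the negative binomial test. The lowest adjusted p was 0.567 in each set. At an unadjusted p under 0.05 there were 1, 1, 0 and 2 pairs, against 8.43% of all directed pairs. A Poisson test called 0, 1, 0 and 1, against 11% of all.

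Counts per pair were small. From Actb, Rnf216 had 2, 1 and 1 events in libraries a, b and c against 1.45 expected in all, and read from Rnf216, Actb had 3, 3 and 7 against 3.95. Both directions were above expectation in the sum, with ratios of 2.76 and 3.29. Fbxl18 had 24 events against 22.1 from Actb, and 39 against 63.5 in the reverse direction. At 11.2 kb it was by far the closest captured neighbour, and it was not above expectation in both directions.

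Of the other named Actb pairs, Usp42, a deubiquitinase gene 824 kb upstream, had the highest ratio, with 1, 2 and 0 events in libraries a, b and c against 0.432, and 2 against 0.197 in reverse. Wipi2 (3 events), E130309D02Rik (4) and Ap5z1 (2) had ratios from 4.14 to 4.84 from Actb and from 1.37 to 2.85 in reverse. Zfp12 had 0 events in either direction, where 1.18 and 0.791 were expected. Eif2ak1, the gene of the haem-regulated kinase of erythroid cells, is named because its start lies in the Actb window with the third-lowest p. That window, 907.5 to 912.5 kb upstream, had 0, 2 and 6 events in libraries a, b and c against 1.24, so library a had none, and without library c the ratio went from 6.43 to 2.55. Beside the Eif2ak1 viewpoint there was 1 event against 0.383.

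Pabpc1 had fewer captured neighbours, 6 within 1 Mb against 14 for Actb. Rnf19a, a RING-type ubiquitin ligase gene 326 kb away, had 1, 2 and 2 events in libraries a, b and c against 1.38, and read from Rnf19a, Pabpc1 had 0, 6 and 3 against 1.88. Ratios were 3.63 and 4.79, and library a had no event in the reverse direction. Ywhaz had 6 events against 2.39, and 6 against 4.47 in reverse. In a wider view, the 5 kb window of Pabpc1 that held the Ywhaz start had 4, 9 and 4 events in libraries a, b and c against 4.92 (ratio 3.46, negative binomial adjusted p = 0.436), above expectation in each.

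The remaining pairs of Pabpc1 differed by direction. Zfp706 had 1 event against 1.07 from Pabpc1 but 8 against 1.58 in reverse, Polr2k had 0 against 0.699 and 13 against 6.14, Ankrd46 had 4 against 3.94 and 34 against 29.0, and Cox6c had 0 against 0.638 and 1 against 1.40. Summed over all its pairs, Pabpc1 had a ratio of 1.58 outwards and 1.59 inwards, and Actb 1.43 and 0.943, against 1.44 over all directed pairs. Of the 75 inward events of Actb, 39 were those of Fbxl18, which had 63.5 of the 79.5 expected. Ratios were above 1 in 12 of the 14 inward and 11 of the 14 outward pairs of Actb (medians 1.46 and 1.95), and in 5 and 3 of the 6 pairs of Pabpc1 (1.73 and 0.973), against 61.3% of all directed pairs (median 1.38). Most Actb pairs had under 1 expected event, so that 1 event already gave a ratio above 1. The 3 other outward pairs of Actb had 0 events. These counts thus largely record whether a pair had any event and do not show enrichment.

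Contacts from 1 to 50 Mb were tested in 1 Mb windows in the same way, but with expectation scaled to the viewpoint's total from 1 to 50 Mb. Over all viewpoints 735 of 522927 windows were called (0.141%), and none of 57 for Actb or 82 for Pabpc1 by the negative binomial test. At an unadjusted p under 0.05 there were 7 (12.3%) and 11 (13.4%), against 8.23% over all viewpoints. The Pabpc1 window with the lowest p, chosen after the values were seen, lay 46 to 47 Mb upstream (chr15:82538937-83538936), with 8, 12 and 14 events in libraries a, b and c against 7.29 expected in all (ratio 4.66, negative binomial adjusted p = 0.0696). Each library was above expectation.

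With 500 kb windows, where 0.153% of all windows were called, 3 of 164 Pabpc1 windows passed and none of 114 for Actb. They lay 22 to 22.5, 39.5 to 40 and 46.5 to 47 Mb upstream. Their counts in libraries a, b and c were 11, 18 and 15 against 7.87, 10, 10 and 13 against 4.69, and 8, 6 and 12 against 3.60 expected in all. The ratios were 5.59, 7.04 and 7.22, with negative binomial adjusted p of 0.0131, 0.00896 and 0.0132. The windows held 7, 33 and 9 starts of protein-coding genes. All of the 3 windows were above expectation in each library, which a call requires.

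Among 1 Mb windows with at least 10 expected events, the highest for Pabpc1 was 22 to 23 Mb upstream (chr15:58538937-59538936), with 15, 20 and 17 events in libraries a, b and c against 15.6. Neighbouring 21 to 22 Mb had 45 events against 17.1, and 36 to 37 Mb had 27 against 10.6. For Actb the highest were on the gene-body side, 35 to 36 Mb (37 against 17.2), 21 to 22 Mb (60 against 28.9) and 18 to 19 Mb (53 against 26.5), with ratios from 2.0 to 2.15. The Actb windows were less raised, and their negative binomial adjusted p were 0.518 to 0.567.

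Distant contacts varied with the number of captured promoters in a window. Across windows, Spearman's rho between the ratio and the number of captured promoters was 0.767 for Actb (57 windows) and 0.774 for Pabpc1 (82 windows), close to the median of 0.794 over all viewpoints. These points share libraries and depth and are given as a description. In windows with at least 10 captured promoters the Pabpc1 ratio was 3.86, 2.92 and 3.34 in libraries a, b and c (5 windows), and in the 40 windows with none it was 0.414, 0.469 and 0.373. For Actb these ratios were 1.62, 1.69 and 1.66 (12 windows) and 0.248, 0.390 and 0.321 (10 windows). The contrast between windows with at least 10 and with no captured promoters was present in every library of both promoters. Over all viewpoints the ratios of such windows were 1.53 and 0.625. The 5 Pabpc1 windows all lay 39 to 47 Mb upstream and included the window of lowest p. Promoter number and place on the chromosome were thus not separated there.

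**Figure D5:**
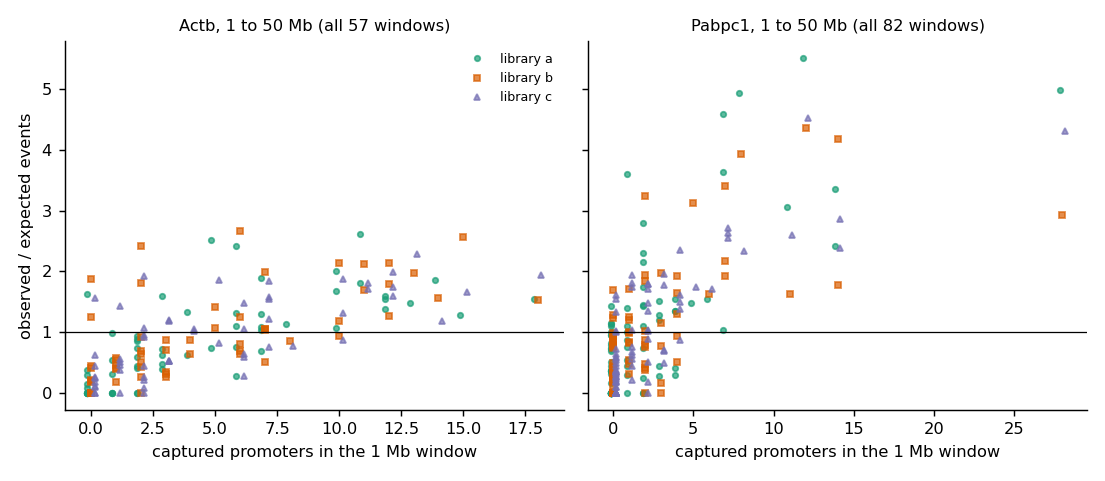
Observed over expected events of Actb (left, 57 windows) and Pabpc1 (right, 82 windows) in each 1 Mb window from 1 to 50 Mb, against the number of captured promoters in the window, in libraries a, b and c. Ratios are mostly below 1 in windows with no captured promoter and above 1 in those with at least 10.

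Lastly, the members were set beside genes of related function. Of 19 genes often used as expression references, 18 were captured. Their median share of events from 10 to 100 kb was 19.4%, against 15.9% over all viewpoints. Pabpc1 was above 17 of them and below only the transferrin receptor gene Tfrc (34.5%), while Actb was above 6. Its closest paralogue, the gamma-actin gene Actg1, had 19.3%. Among these genes, 4 (22.2%) had a called window, as did 21.8% of all viewpoints.

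Of 29 actin assembly genes, 22 were captured, with a median share from 10 to 100 kb of 15.3%, and Actb exceeded 17 of them. The highest were Add1 (24.8%), Tmod1 (24.3%) and Tpm1 (21.5%), which encode an adducin, a tropomodulin and a tropomyosin, proteins that bind actin filaments, and the lowest were Tmod3 (7.91%), Mkl1 (11.3%) and Wdr1 (11.7%). Called windows were present for 3 of them (13.6%). Of 29 genes of poly(A) tail and cap binding, 25 were captured, with a median of 17.2%, and Pabpc1 exceeded all 25. Its paralogue Pabpc4 had 12.8%, and the highest was Paip2 (25.3%), the gene of an inhibitor that binds the Pabpc1 protein. Called windows were present for 4 of these 25 (16.0%).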

How the data were processed

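The authors trimmed reads (Trim Galore), aligned them to mm9 (Bowtie, version not given in the sources used here), removed PCR duplicates and counted reporters with CCseqBasic. CaptureCompare was then used for scaling, so the deposited signal is reporters per 100000 cis reporters of a viewpoint and library. Worked back with the smallest value as 1 event (tolerance 0.01), 100% of values were whole, and tests used these counts. Distances run between fragment midpoints. Expected counts used 50 distance ranges from 2.5 kb to 1 Mb, or from 1 to 50 Mb for distant windows. Dispersions were taken by moments after the top 0.1% of standardised counts had been set aside. Viewpoints needed 1000 cis events, which 6718 met. Calling was tested on simulated data. Duplicates were removed by read position, without molecular identifiers. Named windows were all called ones or, with fewer than 5, the 5 highest ratios; named pairs were the nearest 3 on each side and the 5 highest; named list genes were the 3 highest and lowest or paralogues, and others are said to be chosen after seeing values. Genes are from GENCODE vM1. Members and lists were chosen with earlier results of these data known. Python 3.11.15, NumPy 2.4.6, SciPy 1.17.1 and pandas 2.3.3 were used. Alternatives left out each library in turn and changed the dispersion, the scale of expectation, the window and the flank. The authors' interaction calls were not used here. The sequences of some promoter stretches are not reported here.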

Additional observations from a re-analysis of the deposited data

How the results depend on the processing

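Under the alternatives, 102 recomputed values of the main comparisons kept their number of calls or stayed within 1 SD, and 12 did not. This tally is no measure of robustness. A share or slope could not leave 1 SD when library a was left out or the 3 libraries were averaged. That follows from how the SD was formed. Many of the other values were counts of 0 calls among few pairs or windows. With no count left out of the dispersion, the lowest negative binomial adjusted p of Actb pairs was 0.0433 in each direction, without a call. Called 5 kb windows stayed at 0 for Pabpc1 in all alternatives but Poisson (19), and for Actb ranged from 0 to 1 without single libraries (1 without library b), with 1 when the highest 1% of counts was left out of the dispersion and 13 under Poisson. Windows of 2.5 and 10 kb, single fragments, and 25 and 50 kb windows (chosen after seeing the data) gave 0 for both. Poisson called 1 pair towards each member, and 500 kb windows called 3 distant Pabpc1 windows. Over all viewpoints, 5 kb calls went from 2834 to 172 with no count left out of the dispersion, 8688 with 1% left out and 161455 under Poisson, and pair calls from 45 to 2132 with none left out and 9978 under Poisson. The Actb gene-body share was 22.6% from 10 to 500 kb and 37.1% per fragment, and the Pabpc1 share 45.5% from 10 to 500 kb. The Actb slope was -0.84 with 5 bins and -1.01 per base. The causes were not tested. No paired analysis was possible because the series has 1 group. Called windows were present for 20.4% of viewpoints of like depth and 21.8% of all.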
